A study of Mus musculus with 8 samples.

Results

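Interferon-stimulated genes, 53 genes that cells induce in answer to type I interferon or to interferon gamma, were followed in the Flow-Seq libraries of TN SST neurons. The members were taken by symbol from a list of known interferon targets, and all 53 were found among the 35968 genes joined to the deposited transcripts. All 53 also passed the filter on low counts, which left 15194 genes. TN SST neurons are the somatostatin cells of the tuberal nucleus, a small area in the lateral hypothalamus. They came from 8 Sst-Cre mice, 4 cycling females and 4 gonadally intact males, on a C57BL/6J background, each with 1 library of total RNA. All 8 mice carried the genotype Ssttm2.1(cre)Zjh/J / + and had been injected with AAV2-flex-tdTomato, so there was no group without the virus, the surgery or the cell sort, and the labels name no treatment with an interferon. Age was not in the labels. Cre was made from the *Sst* locus, so red cells were those near the injection that expressed *Sst* when the virus recombined or had done so before, and the sort kept live, nucleated cells with strong red fluorescence.

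Interferons are secreted proteins that put cells into an antiviral state. Type I interferons (alpha and beta) bind a receptor made of IFNAR1 and IFNAR2 and lead to a complex with STAT2 and IRF9 that binds interferon-stimulated response elements (ISRE). Interferon gamma, made mainly by T and NK cells, binds IFNGR1 and IFNGR2 and acts through gamma-activated sites (GAS). Many targets answer to both, and the division is one of degree: the *Ifit*, *Oas* and *Mx* genes are used as readouts of type I interferon, and the *Gbp*, *Irgm* and *Tgtp* GTPases and *Cxcl9* as readouts of interferon gamma. In the brain, microglia carry many of these transcripts, and healthy neurons keep them low.

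The bases just before the start of 9 members are shown because they hold the elements named above. Capitals mark the core of an ISRE, GAAANNGAAA, and of a GAS, TTCNNNGAA, searched on both strands, and matches of the same motif may overlap. Each sequence runs 5′ to 3′ along the gene, ends at the base before the start of transcription, and is from RefSeq (GRCm38.p6).
Ifit1: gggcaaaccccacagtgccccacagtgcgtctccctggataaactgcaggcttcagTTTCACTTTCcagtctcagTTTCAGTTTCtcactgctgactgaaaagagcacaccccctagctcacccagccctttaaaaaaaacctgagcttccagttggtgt
Ifit3: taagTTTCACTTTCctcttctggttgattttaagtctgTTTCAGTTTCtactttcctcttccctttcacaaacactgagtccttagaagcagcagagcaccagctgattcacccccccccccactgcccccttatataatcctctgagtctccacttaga
Isg15: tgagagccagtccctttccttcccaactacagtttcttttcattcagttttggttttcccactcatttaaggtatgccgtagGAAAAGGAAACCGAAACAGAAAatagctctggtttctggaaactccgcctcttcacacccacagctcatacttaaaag
Gbp2: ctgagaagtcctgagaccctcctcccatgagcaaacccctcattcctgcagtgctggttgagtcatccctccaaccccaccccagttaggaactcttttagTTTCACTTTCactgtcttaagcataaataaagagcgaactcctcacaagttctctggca
Irf1: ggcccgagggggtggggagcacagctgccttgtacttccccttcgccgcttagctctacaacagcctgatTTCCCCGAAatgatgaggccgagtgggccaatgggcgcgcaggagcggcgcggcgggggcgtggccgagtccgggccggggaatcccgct
Igtp: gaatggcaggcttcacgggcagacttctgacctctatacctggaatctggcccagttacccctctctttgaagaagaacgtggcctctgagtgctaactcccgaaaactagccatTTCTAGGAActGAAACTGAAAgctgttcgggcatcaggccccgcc
Irgm2: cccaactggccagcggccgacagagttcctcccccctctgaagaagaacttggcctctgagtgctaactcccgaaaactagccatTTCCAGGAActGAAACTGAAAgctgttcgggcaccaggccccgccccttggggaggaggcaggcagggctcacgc
Tgtp1: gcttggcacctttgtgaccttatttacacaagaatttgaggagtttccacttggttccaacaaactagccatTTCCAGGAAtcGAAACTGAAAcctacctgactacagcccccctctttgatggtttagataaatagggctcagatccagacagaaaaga
Tgtp2: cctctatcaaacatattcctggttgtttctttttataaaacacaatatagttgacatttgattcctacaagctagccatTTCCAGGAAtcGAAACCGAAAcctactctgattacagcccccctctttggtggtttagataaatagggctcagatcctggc
Their places are chr19:34640729-34640888, plus strand (*Ifit1*), chr19:34583369-34583528, plus strand (*Ifit3*), chr4:156200819-156200978, minus strand (*Isg15*), chr3:142620503-142620662, plus strand (*Gbp2*), chr11:53769854-53770013, plus strand (*Irf1*), chr11:58199396-58199555, plus strand (*Igtp*), chr11:58214817-58214976, plus strand (*Irgm2*), chr11:48992247-48992406, minus strand (*Tgtp1*) and chr11:49064213-49064372, minus strand (*Tgtp2*). *Ifit1* and *Ifit3* each held 2 ISRE cores in these 160 bases and no GAS core. *Isg15* held 3 ISRE cores that overlap in 1 run. *Irf1*, the factor that carries interferon gamma signals on to further genes, held a GAS core and no ISRE core. The 4 GTPase genes *Igtp*, *Irgm2*, *Tgtp1* and *Tgtp2* each held a GAS core whose start lay 11 bases before the start of an ISRE core. This spacing was taken from these same promoters and then counted in all 32851 RefSeq promoter windows, of which 5 held it (0.0152%). Of the 5 genes with it, 4 are members, so the share is no test of the spacing. *Tgtp1* and *Tgtp2* are also near-identical copies.

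Of the 53 members, 39 matched a RefSeq promoter window, which covers 250 bases before and 50 bases after a start. At least 1 ISRE core was found in 26 of the 39 (66.7%), against 3.99% of 27025 genes with a window. At least 1 GAS core was found in 13 of the 39 (33.3%), against 9.55% of the same genes. Among type I typical members 5 of 8 held an ISRE core and 2 of 8 a GAS core, and among interferon gamma typical members 8 of 9 held an ISRE core and 5 of 9 a GAS core. The windows of *Oasl2* and *Cxcl9*, whose levels are given below, held neither core. A match says that these letters are in the window, not that a factor was bound there. Whether these elements play a part in the levels of the members was not tested.

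In units of 1000000 estimated counts, the files held between 7.83 and 17.6 for a mouse. Levels are given as CPM, counts scaled to a library of 1000000 after TMM normalization, and 3 counts corresponded to 0.148 to 0.458 CPM, which covers counting error only. The markers of neurons were present in every mouse, with summed levels of 2253 to 3622 CPM, and *Sst* itself was at 396, 464, 526 and 292 CPM (females 1 to 4) against 368, 369, 303 and 301 CPM (males 1 to 4). Markers of other cells were present too, above all those of microglia, which are given beside the interferon results they move with. Because RNA was taken in bulk, more cells of a type and more RNA per cell cannot be told apart. The 53 members together held 0.0300% to 0.286% of the counts of a mouse.

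Most type I typical members were higher in female 1 and in the 4 males than in females 2, 3 and 4, and in *Oas1a* male 1 lay below female 4. *Oasl2* (ENSMUSG00000029561.17, chr5:114896936-114912234, plus strand), a relative of the enzymes that make the RNase L activator, was at 94.9, 8.86, 5.23 and 9.90 CPM (females 1 to 4) against 78.7, 77.8, 44.4 and 105 CPM (males 1 to 4). Female 1 lay above 3 of the 4 males, so the sexes overlapped, and the group values were 29.7 ± 43.5 CPM for the females and 76.6 ± 25.0 CPM for the males (SD, n = 4 mice per sex). The log2 fold change of males minus females was 1.37 ± 0.82 (SE), and edgeR (quasi-likelihood test, p adjusted after Benjamini and Hochberg over all genes) gave an adjusted p of 0.37.

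The IFIT proteins bind viral RNA and block its translation, and 4 of their genes stand side by side at chr19:34550694-34650009. *Ifit3* (chr19:34583531-34588731, plus strand) was at 56.8, 12.7, 3.26 and 6.57 CPM (females 1 to 4) against 31.4, 59.5, 39.7 and 129.7 CPM (males 1 to 4). *Ifit2* (chr19:34550694-34576419, plus strand), which shared no 31-base stretch with another gene, was at 59.9, 11.3, 6.17 and 10.1 CPM (females 1 to 4) against 26.1, 61.0, 42.8 and 89.2 CPM (males 1 to 4). *Ifit1* (chr19:34640871-34650009, plus strand) was at 43.2, 8.10, 2.47 and 5.31 CPM (females 1 to 4) against 32.0, 31.8, 22.9 and 46.0 CPM (males 1 to 4). In each of these genes male 4 was the highest mouse, female 3 the lowest and female 1 the highest female. *Ifit3b*, a copy of *Ifit3* that shares 61.8% of the 31-base stretches of the latter, was at 19.5, 3.82, 1.73 and 3.87 CPM (females 1 to 4) against 10.9, 12.9, 13.5 and 40.9 CPM (males 1 to 4), and since reads of that sequence fit both genes the split between them is uncertain. The log2 fold changes of these 4 genes were 1.73 ± 0.82 for *Ifit3*, 1.33 ± 0.69 for *Ifit2*, 1.18 ± 0.74 for *Ifit1* and 1.45 ± 0.73 for *Ifit3b* (SE), with edgeR adjusted p of 0.264, 0.302, 0.389 and 0.294.

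The other type I typical members were the oligoadenylate synthetase genes *Oas1a*, *Oas2* and *Oas3*, their relative *Oasl1*, and *Mx1* and *Mx2*, genes of the dynamin-like GTPase family. Male 4 was the highest of the 8 mice in 10 of the 11 type I typical members, against 16.7% of all genes tested, and the exception was *Oasl1*, highest in male 2. Female 3 was the lowest mouse in all 11. *Mx1* was at 7.22, 1.53, 0.789 and 1.35 CPM (females 1 to 4) against 3.26, 3.76, 6.26 and 20.7 CPM (males 1 to 4), and male 4 stood well above the other males in it. Over the 11 genes the median log2 fold change was 1.34, with 11 of 11 higher in males on average. Of the 11, 0 were called by edgeR (0.158% of all genes) and 0 had an unadjusted p under 0.05 in it (20.5% of all genes). DESeq2 also called 0, against 6.94% of all genes, with no p for *Ifit3b*.

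Interferon gamma typical members were ordered differently among the males. *Tgtp2* (ENSMUSG00000078921.3, chr11:49057194-49064206, minus strand), a GTPase of the immunity-related family that attacks the vacuoles of parasites, was at 44.1, 1.53, 0.444 and 0.720 CPM (females 1 to 4) against 9.53, 61.5, 9.47 and 13.5 CPM (males 1 to 4). *Cxcl9* (chr5:92321347-92328079, minus strand), a chemokine that draws in T cells, was at 88.1, 0.916, 0.888 and 0.720 CPM (females 1 to 4) against 20.9, 128, 26.3 and 14.6 CPM (males 1 to 4). Both were at or below 1.53 CPM in females 2, 3 and 4 and at 9.47 CPM or more in every other mouse, with male 2 the highest and female 1 next.

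The guanylate-binding proteins coat bacteria and parasite vacuoles, and their genes lie in groups at chr3:142493978-142638008 and chr5:105115767-105293698. *Gbp2* (chr3:142620602-142638008, plus strand) was at 81.6, 1.37, 1.43 and 3.24 CPM (females 1 to 4) against 30.0, 195, 25.2 and 44.6 CPM (males 1 to 4). *Gbp6* (chr5:105270702-105293698, minus strand) was at 76.8, 5.80, 5.62 and 8.19 CPM (females 1 to 4) against 61.4, 169, 40.7 and 35.3 CPM (males 1 to 4). *Gbp6* shares 74.3% of its 31-base stretches with other genes, mostly with *Gm43302*, so its level is uncertain. The log2 fold changes were 1.03 ± 1.28 for *Tgtp2*, 1.08 ± 1.40 for *Cxcl9*, 1.77 ± 1.26 for *Gbp2* and 1.68 ± 0.90 for *Gbp6* (SE), with edgeR adjusted p of 0.679, 0.692, 0.45 and 0.318. *Tgtp1*, the near-identical copy of *Tgtp2*, was at 7.88, 0, 0.0493 and 1.17 CPM (females 1 to 4) against 2.77, 42.2, 3.22 and 2.64 CPM (males 1 to 4), and 90.5% of the 31-base stretches of *Tgtp2* occur in other genes, so reads cannot be divided firmly between the copies.

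Male 2 was the highest of the 8 mice in all 11 interferon gamma typical members, against 18.5% of all genes tested, and female 1 lay above males 1, 3 and 4 in all 11. The 11 also hold *Gbp3*, *Gbp4*, *Gbp5* and *Gbp7*, and *Irgm1* and *Irgm2*, GTPases that steer autophagy against microbes inside the cell. The median log2 fold change of the 11 was 1.34, with 11 of 11 higher in males on average. Of the 11, 0 were called by edgeR (0.158% of all genes) and 0 had an unadjusted p under 0.05 in it (20.5% of all genes). DESeq2 also called 0, against 6.94% of all genes, but gave no p for 6 of them. Without male 2 this median was 0.51, and *Cxcl9* and *Tgtp2* had values of -0.12 and -0.10.

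**Figure D1:**
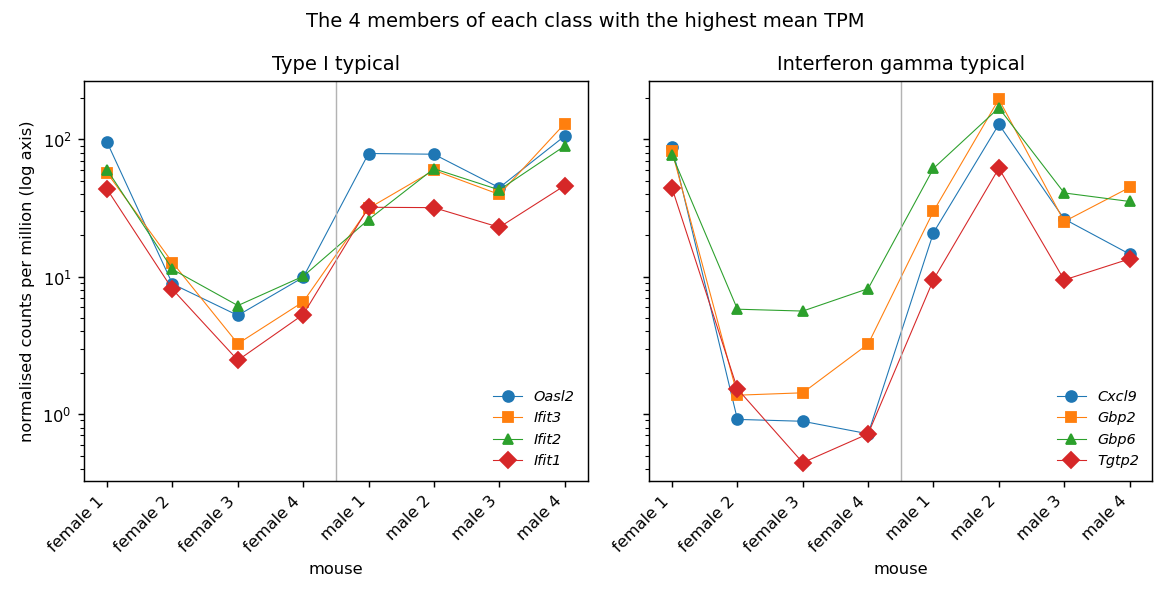
CPM (log axis) in each of the 8 mice for the 4 type I typical members (left) and the 4 interferon gamma typical members (right) with the highest mean TPM, 1 line per gene. Females 2, 3 and 4 are low in both panels, male 4 is highest on the left and male 2 on the right. Heights should be compared within a gene, since CPM is not per length.

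The 2 classes were then set against each other in each mouse. The level of a class was the mean log2 CPM of its 11 genes. For type I typical members this was 4.35, 1.77, 0.57 and 1.82 (females 1 to 4) against 3.12, 4.19, 3.63 and 5.06 (males 1 to 4). For interferon gamma typical members it was 5.46, 1.39, 1.02 and 1.71 (females 1 to 4) against 4.20, 6.44, 4.03 and 4.14 (males 1 to 4). Females 2, 3 and 4 were the lowest mice in both classes. Male 4 led the first class and male 2 the second.

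The difference, type I minus interferon gamma on the log2 CPM scale, was -1.10, 0.38, -0.45 and 0.11 (females 1 to 4) against -1.08, -2.25, -0.39 and 0.92 (males 1 to 4). Since genes of different length enter the classes, a value of 0 has no meaning of its own, and only the order of mice is read from it. Male 2 stood at the interferon gamma end, followed by female 1 and male 1 at nearly the same value, and male 4 stood at the type I end. The 2 ends are both males, and the females lay between them. Per length, on the scale of log2(TPM + 0.1), the differences were -1.20, 0.83, -0.25 and 0.61 in females and -0.79, -2.29, -0.31 and 0.73 in males, with male 2 again lowest and female 2 in place of male 4 highest. The levels of female 2 rest on few counts, with 6 counts for *Cxcl9* and 0 for *Tgtp1*.

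Summed over genes, type I typical members were at 336, 53.9, 22.4 and 47.3 CPM (females 1 to 4) against 197, 304, 199 and 515 CPM (males 1 to 4). Interferon gamma typical members summed to 558, 40.3, 31.4 and 51.5 CPM (females 1 to 4) against 256, 1062, 212 and 246 CPM (males 1 to 4). The ratio of the first sum to the second was 0.602, 1.34, 0.711 and 0.920 (females 1 to 4) against 0.771, 0.286, 0.938 and 2.10 (males 1 to 4). It was lowest in male 2 and highest in male 4. In TPM, which is per length, the sums were 312, 52.4, 23.0 and 50.8 TPM (females 1 to 4) against 207, 266, 200.3 and 467 TPM (males 1 to 4) for type I typical members. For interferon gamma typical members they were 510.2, 25.5, 24.6 and 32.5 TPM (females 1 to 4) against 186, 911, 189 and 214 TPM (males 1 to 4).

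**Figure D2:**
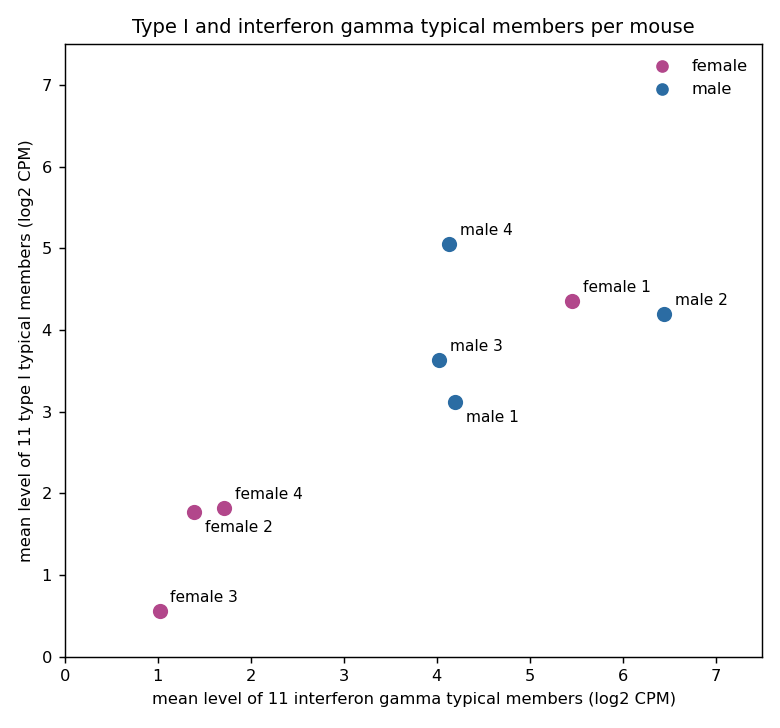
Mean log2 CPM of the 11 type I typical members (vertical axis) against that of the 11 interferon gamma typical members (horizontal axis), 1 point per mouse, coloured by sex. Females 2, 3 and 4 sit at the lower left, female 1 sits among the males, male 2 is farthest right (6.44) and male 4 is highest (5.06).

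The contrast between male 2 and male 4 ran through single genes. The ratio of male 2 to male 4 was 2.34 or more in all 11 interferon gamma typical members and reached 16.0 in *Tgtp1*, 15.7 in *Gbp4* and 8.78 in *Cxcl9*. It was 0.738 or less in 10 of the 11 type I typical members, with 1.28 in *Oasl1*, and was lowest in *Mx1*, at 0.182. The 2 GTPases kept apart from both classes were on the interferon gamma side by this ratio, with 6.84 for *Iigp1* and 4.91 for *Igtp*. They are of the same gene family as *Irgm1*, *Irgm2* and the *Tgtp* genes in that class, so this is no separate support. The 2 members of the ISG15 system were on the type I side, with 0.312 for *Usp18* and 0.578 for *Isg15*. Each mouse came in 2 deposited blocks of values from the same animal: male 2 was highest in all 11 interferon gamma typical members in both blocks, and male 4 in 10 type I typical members in the first block and 9 in the second.

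**Figure D3:**
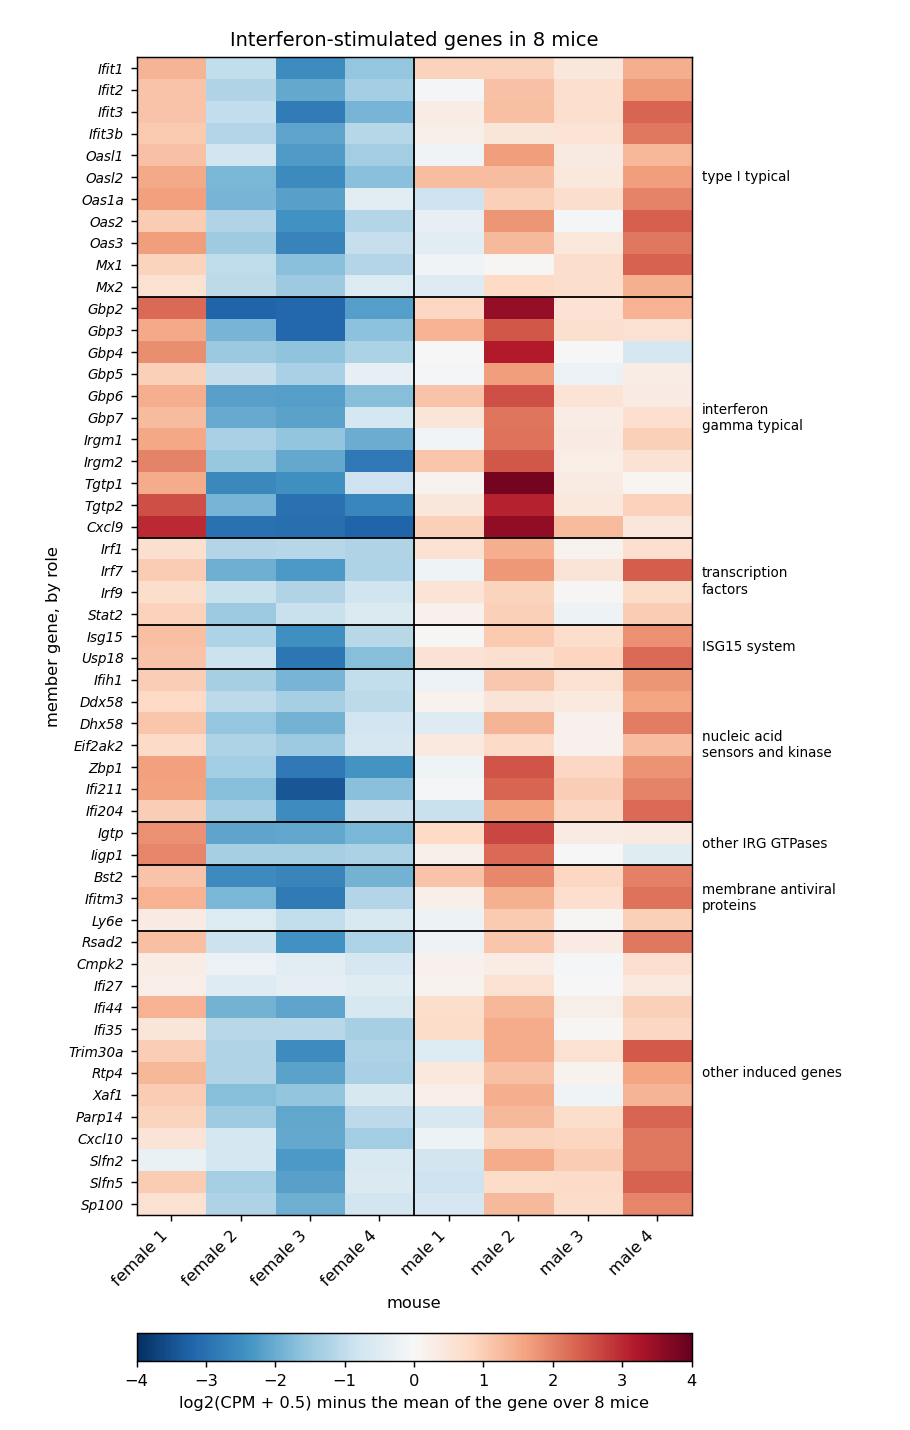
Each of the 53 members (rows, by role) in each of the 8 mice (columns), as log2(CPM + 0.5) minus the mean of that gene over the mice, from blue (lower) to red (higher). The columns of females 2, 3 and 4 are blue or pale throughout, female 1 is red in nearly every row, and the darkest red is in male 2 for interferon gamma typical members and *Igtp*, and in male 4 for most type I typical and other members.

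Transcription factors of the response followed the same mice. *Irf1* (chr11:53770014-53778374, plus strand) was at 40.1, 11.2, 11.2 and 10.8 CPM (females 1 to 4) against 39.2, 70.2, 28.2 and 40.7 CPM (males 1 to 4), and the 3 lower females lay within 10.8 to 11.2 CPM while every other mouse was at 28.2 CPM or more. *Irf7* (chr7:141262706-141266481, minus strand), which drives further type I interferon production, was at 34.6, 3.97, 3.01 and 6.93 CPM (females 1 to 4) against 14.9, 56.7, 24.4 and 92.2 CPM (males 1 to 4). Their log2 fold changes were 1.29 ± 0.47 and 1.96 ± 0.82 (SE), with edgeR adjusted p of 0.188 and 0.228. *Irf9* and *Stat2*, parts of the ISRE-binding complex, ran from 13.6 and 10.4 CPM in the lowest mouse to 59.5 and 60.0 CPM in the highest. None of the 4 was called by edgeR (0.158% of all genes), and 3 of them had an unadjusted p under 0.05, against 20.5% of all genes.

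The ISG15 system attaches a ubiquitin-like tag to proteins and takes it off again. *Isg15* (chr4:156199424-156200818, minus strand), the tag, was at 11.5, 1.68, 0.444 and 1.89 CPM (females 1 to 4) against 4.80, 10.3, 7.86 and 17.8 CPM (males 1 to 4). *Usp18* (chr6:121245906-121270917, plus strand), the protease that removes it and damps IFNAR signaling, was at 19.0, 4.43, 0.691 and 2.25 CPM (females 1 to 4) against 12.9, 13.3, 15.6 and 42.6 CPM (males 1 to 4). Male 4 was highest in both, with a larger lead in *Usp18*. The log2 fold changes were 1.41 ± 0.83 and 1.70 ± 0.85 (SE), with edgeR adjusted p of 0.359 and 0.284.

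Sensors of foreign nucleic acid are themselves interferon targets, and 7 of the members belong here. *Ifi204* (chr1:173747293-173766943, minus strand), a DNA sensor of a gene family on chromosome 1, was at 44.0, 8.10, 3.36 and 11.3 CPM (females 1 to 4) against 11.5, 67.5, 39.1 and 105 CPM (males 1 to 4). *Ddx58* (chr4:40203773-40239828, minus strand), which encodes the RNA sensor RIG-I, was at 28.9, 7.64, 6.22 and 7.74 CPM (females 1 to 4) against 18.2, 23.6, 21.5 and 50.4 CPM (males 1 to 4). Female 1 lay above males 1, 2 and 3 in *Ddx58*, and male 4 was the highest mouse in both genes. The log2 fold changes were 1.75 ± 0.81 and 1.18 ± 0.53 (SE), with edgeR adjusted p of 0.256 and 0.247. *Ifi204* shares 34.6% of its 31-base stretches with other genes. The other 5, *Ifih1* (the RNA sensor MDA5), *Dhx58* (its relative LGP2), *Eif2ak2* (the kinase PKR), *Zbp1* (a sensor of Z-form nucleic acid) and *Ifi211*, had log2 fold changes of 1.08 to 1.76, and male 2 was highest in *Zbp1* and *Ifi211*.

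The GTPases *Igtp* and *Iigp1* are of the same immunity-related family as *Irgm1*, *Irgm2* and the *Tgtp* genes, and act on vacuoles that hold parasites. *Igtp* (chr11:58199556-58207591, plus strand) was at 80.2, 4.74, 4.84 and 5.85 CPM (females 1 to 4) against 39.0, 144, 28.0 and 29.3 CPM (males 1 to 4). *Iigp1* (chr18:60376027-60392634, plus strand) was at 72.3, 7.03, 6.96 and 7.38 CPM (females 1 to 4) against 21.3, 89.5, 18.3 and 13.1 CPM (males 1 to 4). In both genes male 2 and then female 1 were highest, and in *Iigp1* male 4 was the lowest male. The log2 fold changes were 1.34 ± 0.99 and 0.61 ± 0.90 (SE), with edgeR adjusted p of 0.464 and 0.731. *Igtp* overlaps the annotated span of *Irgm2*, with which it shares 15.9% of its 31-base stretches.

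Membrane proteins that hold back viruses included the member with the highest mean TPM of all. *Ly6e* (chr15:74955051-74959905, plus strand), which blocks the fusion of coronaviruses, was at 172, 92.9, 69.2 and 90.5 CPM (females 1 to 4) against 118, 282, 141 and 268 CPM (males 1 to 4). It was well expressed in every mouse, with a narrower spread than most members. *Ifitm3* (chr7:141009586-141010770, minus strand), which stops viruses from leaving endosomes, was at 14.3, 1.07, 0.296 and 1.98 CPM (females 1 to 4) against 5.94, 14.6, 8.40 and 24.7 CPM (males 1 to 4), and females 2, 3 and 4 were at or below 1.98 CPM. Their log2 fold changes were 0.93 ± 0.35 and 1.62 ± 0.95 (SE), with edgeR adjusted p of 0.193 and 0.359. *Bst2*, the tether that holds budding viruses to the cell, had 3 to 11 counts in females 2, 3 and 4 and 105 to 227 counts in the other mice.

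The last 13 members have varied roles. *Ifi27* (chr12:103434211-103440239, plus strand), a small mitochondrial protein gene, was at 18.1, 10.2, 11.1 and 10.3 CPM (females 1 to 4) against 16.3, 23.0, 14.6 and 19.6 CPM (males 1 to 4), a narrow range among the members. *Slfn2* (chr11:83065112-83070678, plus strand), a regulator of immune cell quiescence, was at 14.1, 10.2, 3.06 and 11.1 CPM (females 1 to 4) against 9.93, 48.4, 35.2 and 75.3 CPM (males 1 to 4). In *Slfn2* female 1 was close to females 2 and 4 and to male 1, while males 2, 3 and 4 were high. Their log2 fold changes were 0.56 ± 0.23 and 2.15 ± 0.60 (SE), with edgeR adjusted p of 0.218 and 0.123. The other 11 (*Rsad2*, *Cmpk2*, *Ifi44*, *Ifi35*, *Trim30a*, *Rtp4*, *Xaf1*, *Parp14*, *Cxcl10*, *Slfn5* and *Sp100*) had log2 fold changes of 0.52 to 1.88. Over the 13, 7 had an unadjusted p under 0.05, against 20.5% of all genes. Of them 0 were called by edgeR (0.158% of all genes) and 2 by DESeq2 (6.94% of all genes).

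Between the sexes, 0 of the 53 members were called by edgeR at an adjusted p under 0.05, where 24 of 15194 genes were called in either direction (0.158%) and 7 of them were higher in males (0.0461%). At an unadjusted p under 0.05 there were 13 of the 53, against 20.5% of all genes. DESeq2 called 2 members, *Ifi35* (adjusted p = 0.033) and *Slfn2* (adjusted p = 0.0313), against 6.94% of all genes, and gave no p for 10 members because of counts it took as outliers. The log2 fold change was above 0 in all 53, with a median of 1.36 against 0.004 over all genes tested. Without male 2 it was above 0 in 49 of the 53. In 0 of the 53 did the 4 males all lie above the 4 females, against 3.94% of all genes, because female 1 lay above at least 1 male in each of the 53. In *Ifi44* it lay above all 4.

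Female 1 was the highest female in 53 of 53 members, against 26.7% of all genes, and in all 53 in each deposited block taken alone. Female 3, the most deeply sequenced mouse, was the lowest of the 8 mice in 41 of 53, against 17.6% of all genes. When each mouse was left out in turn, leaving out female 1 changed the result most. Without female 1, 29 of 53 members were called by edgeR as higher in males (1.27% of all genes), and all males lay above all 3 remaining females in 50 of 53 (9.49% of all genes), the exceptions being *Oas1a*, *Slfn2* and *Slfn5*. The median log2 fold change was then 2.74, with 2.78 for type I typical and 3.74 for interferon gamma typical members. With 3 females against 4 males, these females are few, and female 1 carries the same label as they do. Because female 1 was the highest female in all 53, leaving it out raises every one of these fold changes. The calls without it describe how far the result depends on 1 mouse and are no separate support for a difference between the sexes.

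The 29 were 5 type I typical members (*Ifit1*, *Ifit2*, *Ifit3*, *Ifit3b* and *Oasl2*), 8 interferon gamma typical members (*Gbp2*, *Gbp3*, *Gbp6*, *Gbp7*, *Irgm1*, *Irgm2*, *Tgtp2* and *Cxcl9*) and 16 of the other roles. *Cxcl9* had the largest of these log2 fold changes, 5.81 ± 0.97 (SE), with an edgeR adjusted p of 0.0355, and rested on 6 to 18 counts in each remaining female. *Gbp2* had 5.19 ± 0.91 with an edgeR adjusted p of 0.037, and *Oasl2* had 3.28 ± 0.34 with 0.0102. *Irf1* had 2.01 ± 0.29 with an edgeR adjusted p of 0.0314, a smaller change with a smaller error. Leaving out female 1 and male 2 together left 12 members called, against 0.262% of all genes, and 50 with all males above all females, against 11.2% of all genes. Leaving out male 1 left 1, *Slfn2*, against 1.19% of all genes called as higher in males, and leaving out any of the other 6 mice alone left 0.

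**Figure D4:**
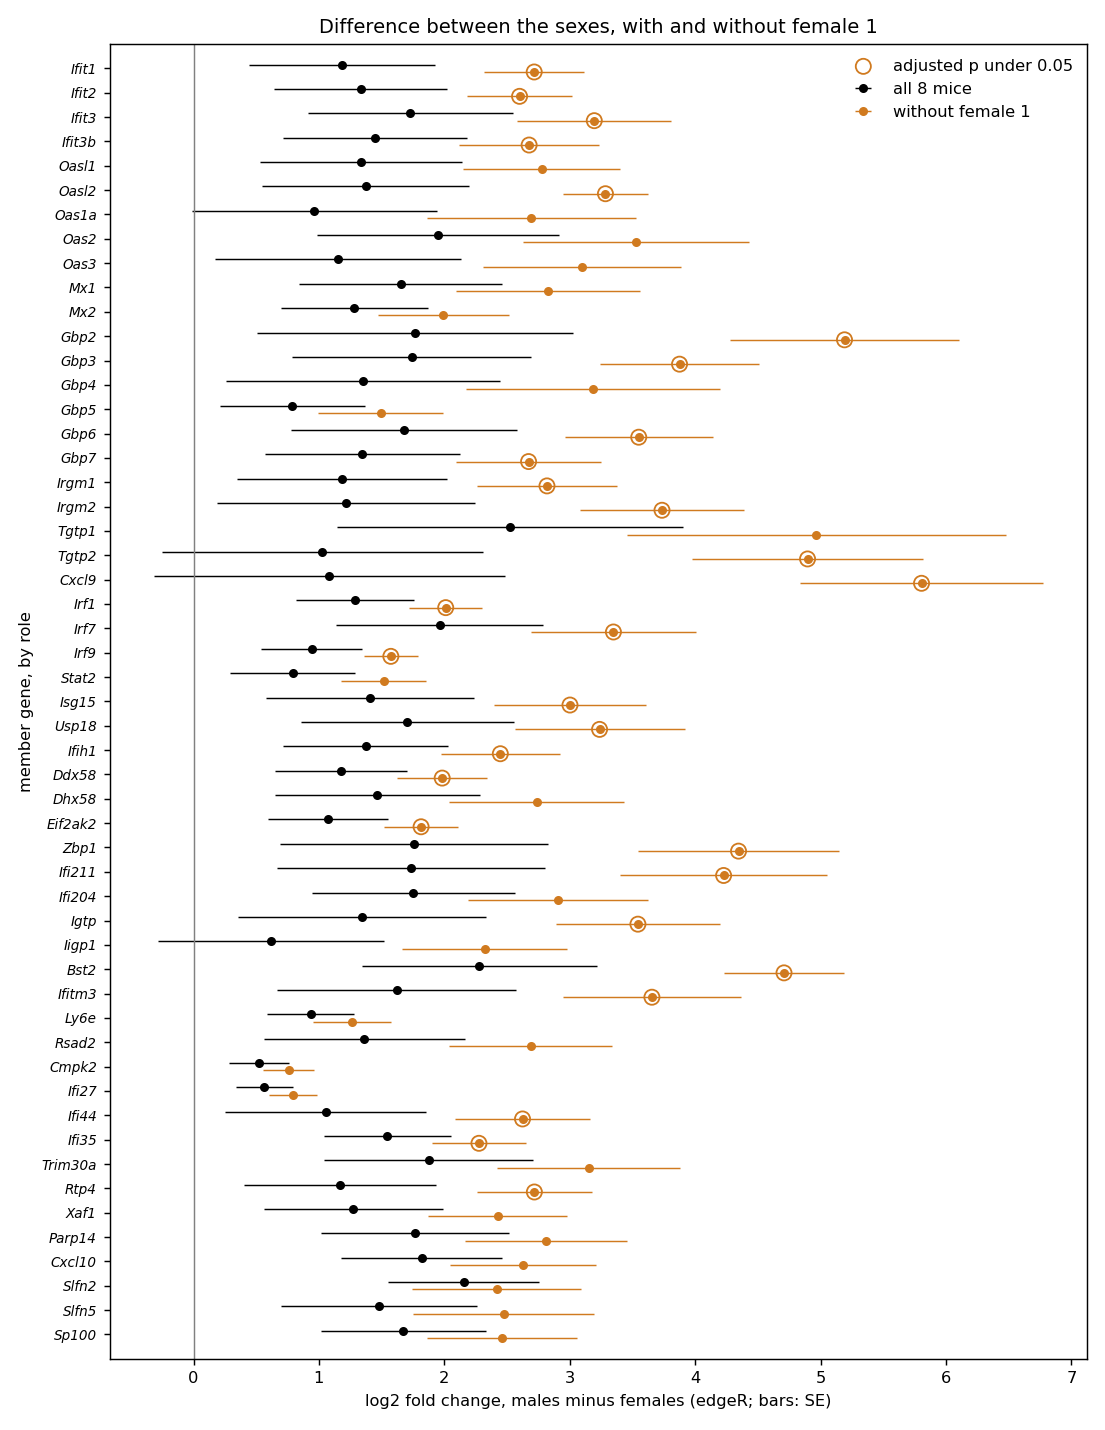
Log2 fold change of males minus females with its SE (bars) for each of the 53 members from edgeR, with all 8 mice (black) and without female 1 (orange), and rings around changes with an adjusted p under 0.05. With 8 mice all 53 points lie right of 0 with no ring, and without female 1, the highest female in all 53, they move right and 29 carry a ring.

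The ligands that would set off the response were scarcely seen. None of 10 ligand genes passed the filter on low counts, and 6 were at 0 in all mice. *Ifng*, interferon gamma itself, had 1, 0, 0 and 0 counts (females 1 to 4) against 1, 7, 4 and 0 counts (males 1 to 4). *Ifnb1* had at most 3 counts in a mouse. Most of these counts are at or under the limit of 3, and differences in the ligands were not detectable at this depth. The highest *Ifng* count was that of male 2. Male 3, with 4 counts, had an interferon gamma typical sum of 212 CPM, and male 4, with 0 counts, had 246 CPM. Female 1, with 1 count, was at 558 CPM. A link between *Ifng* and these sums was not tested.

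The receptors were expressed in every mouse. *Ifnar1* was at 38.3, 35.3, 27.6 and 30.9 CPM (females 1 to 4) against 29.2, 55.4, 31.7 and 42.7 CPM (males 1 to 4), and *Ifnar2* was at 27.5, 15, 12.9 and 17.3 CPM (females 1 to 4) against 22.1, 53.9, 21.3 and 35.9 CPM (males 1 to 4). *Ifngr1* was at 35.0, 25.2, 15.9 and 20.6 CPM (females 1 to 4) against 24.3, 57.0, 37.7 and 56.5 CPM (males 1 to 4), and *Ifngr2* was at 35.6, 32.7, 35.8 and 36.0 CPM (females 1 to 4) against 28.4, 54.7, 36.7 and 49.7 CPM (males 1 to 4). Male 2 was the highest mouse in all 4. The log2 fold changes were 0.27 ± 0.21, 0.88 ± 0.34, 0.87 ± 0.31 and 0.27 ± 0.19 (SE) in that order, with edgeR adjusted p of 0.481, 0.203, 0.182 and 0.434. *Il10rb*, the shared chain of the type III receptor, and *Ifnlr1*, its specific chain, had 1.03 ± 0.65 and 0.28 ± 0.51, and *Ifnlr1* stayed at or below 1.38 CPM. None of the 6 was called by edgeR (0.158% of all genes), and DESeq2 called *Ifngr1* (adjusted p = 0.0493), against 6.94% of all genes.

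Of the 30 pathway genes tested, 4 had sexes that did not overlap, a share close to the 10.4% of all genes. In 3 of the 30 all males were higher, against 3.94% of all genes. The 4 genes were named after their values were seen. *Stat3*, which relays other cytokines, was at 149, 102, 85.8 and 107 CPM (females 1 to 4) against 169, 198, 152 and 180.3 CPM (males 1 to 4), and all males lay above all females. The 2-sided exact permutation p of 0.0286, the smallest possible with 4 against 4, follows from the lack of overlap by which *Stat3* was named. Its log2 fold change was 0.65 ± 0.16 (SE, edgeR adjusted p = 0.0964, DESeq2 adjusted p = 0.00332). *Socs3*, an inhibitor of cytokine receptors, was at 26.8, 19.6, 12 and 25.9 CPM (females 1 to 4) against 32.4, 39.1, 51.0 and 71.8 CPM (males 1 to 4) (log2 fold change 1.21 ± 0.30 (SE), edgeR adjusted p = 0.101, DESeq2 adjusted p = 0.00237). *Socs1*, a relative of it, was higher in all males, with a log2 fold change of 1.23 ± 0.40 (SE, edgeR adjusted p = 0.16). *Pias1*, another inhibitor, was lower in all males, at 56.9, 53, 66.2 and 53.5 CPM (females 1 to 4) against 49.7, 50.3, 46.5 and 51.8 CPM (males 1 to 4), with a log2 fold change of -0.21 ± 0.10 (SE, edgeR adjusted p = 0.246). Of the 9 kinases and factors, 8 were higher in males on average, and of the 4 negative regulators 3 were. In both groups 0 were called by edgeR, against 0.158% of all genes. All 11 upstream sensors and adaptors were higher in males on average, 6 with an unadjusted p under 0.05, against 20.5% of all genes. Of the 11, 0 were called by edgeR (0.158% of all genes). DESeq2 called *Ticam1* (adjusted p = 0.0244) and *Myd88* (adjusted p = 0.00755), against 6.94% of all genes.

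Markers of some other cells were high in the same mice as these genes. The 10 microglia markers summed to 1659.8, 579, 291 and 830.1 CPM (females 1 to 4) against 665, 3254, 1864 and 3130.4 CPM (males 1 to 4). All 10 were higher in males on average, and 5 had an unadjusted p under 0.05 in edgeR, against 20.5% of all genes. Of the 10, 0 were called by edgeR, against 0.158% of all genes. Male 2 and male 4, which led the 2 interferon classes, had similar sums of microglia markers. In both mice this sum lay above that of the neuron markers, which was 2322 CPM in male 2 and 2253 CPM in male 4. Sums over different genes do not give shares of cells. Relative to the microglia sum, the type I sum was 20.2%, 9.31%, 7.67% and 5.70% (females 1 to 4) against 29.7%, 9.33%, 10.7% and 16.4% (males 1 to 4). The interferon gamma sum was 33.6%, 6.96%, 10.8% and 6.20% of it in females and 38.5%, 32.6%, 11.4% and 7.85% in males. Male 1 had a lower microglia sum than female 4 and the highest of both ratios.

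The 10 markers of border and infiltrating myeloid cells summed to 92.2, 13.3, 12.7 and 16.6 CPM (females 1 to 4) against 20, 241, 42.8 and 61.8 CPM (males 1 to 4). Male 2 and then female 1 were highest, as in the interferon gamma typical members, but male 1, next in the interferon gamma sum, lay near female 4 here. Most of the sum came from *Lyz2*, at 51.3, 4.12, 3.90 and 5.76 CPM (females 1 to 4) against 7.49, 113, 14.1 and 16.8 CPM (males 1 to 4), and *Itgax*, at 32.7, 4.58, 2.32 and 4.68 CPM (females 1 to 4) against 4.97, 98.8, 16.7 and 24.1 CPM (males 1 to 4). Male 2 was the highest mouse in 8 of the 10 genes, and male 4 in *Mrc1* and *Cd163*, of which *Mrc1* was lowest in female 1. The 11 markers of T and NK cells summed to 14.7, 11.3, 13.1 and 14.0 CPM (females 1 to 4) against 21.3, 59.9, 20.3 and 10.1 CPM (males 1 to 4). Male 2 was the highest mouse in 8 of the 11, among them *Cd3e*, part of the T cell receptor complex, at 2.44, 0, 0.296 and 0 CPM (females 1 to 4) against 1.30, 8.07, 1.61 and 0 CPM (males 1 to 4). *Cd3d* was highest in female 4, *Cd8a* in male 1 and *Ncr1* in male 4. Of the 11 genes, 2, 5, 3 and 3 were at 0 (females 1 to 4) against 1, 1, 2 and 5 (males 1 to 4), and female 2 and male 4 had the fewest counts in all. The 5 B cell markers summed to 112, 3.67, 4.19 and 5.04 CPM (females 1 to 4) against 16.1, 404, 181 and 19.4 CPM (males 1 to 4), nearly all from *Ighm*, the heavy chain of IgM.

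Astrocyte markers summed to 557, 841, 269 and 503 CPM (females 1 to 4) against 640.3, 882, 679 and 936 CPM (males 1 to 4). Endothelial and mural markers summed to 33.6, 72.2, 29.3 and 96.9 CPM (females 1 to 4) against 40.5, 42.7, 68.1 and 111 CPM (males 1 to 4). In both, female 2 lay above female 1 and male 1, unlike in the interferon classes. Oligodendrocyte lineage markers summed to 1897, 844, 479.6 and 550.2 CPM (females 1 to 4) against 797, 1728, 1832 and 1771 CPM (males 1 to 4). The 10 neuron markers summed to 2954, 3187, 3622 and 2891 CPM (females 1 to 4) against 2877, 2322, 2560.3 and 2253 CPM (males 1 to 4), so every male sum lay below every female sum. All 10 were lower in males on average, with a median log2 fold change of -0.32 and 0 called by edgeR (0.158% of all genes). The 3 with an unadjusted p under 0.05 (20.5% of all genes) were *Snap25*, *Syt1* and *Rbfox3*. In each of these 3 all males lay below all females. Sexes that did not overlap, in either direction, were seen in 10.4% of all genes. No marker of these lists was at 0 in all 8 mice. The part of these cells in the interferon results was not tested.

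**Figure D5:**
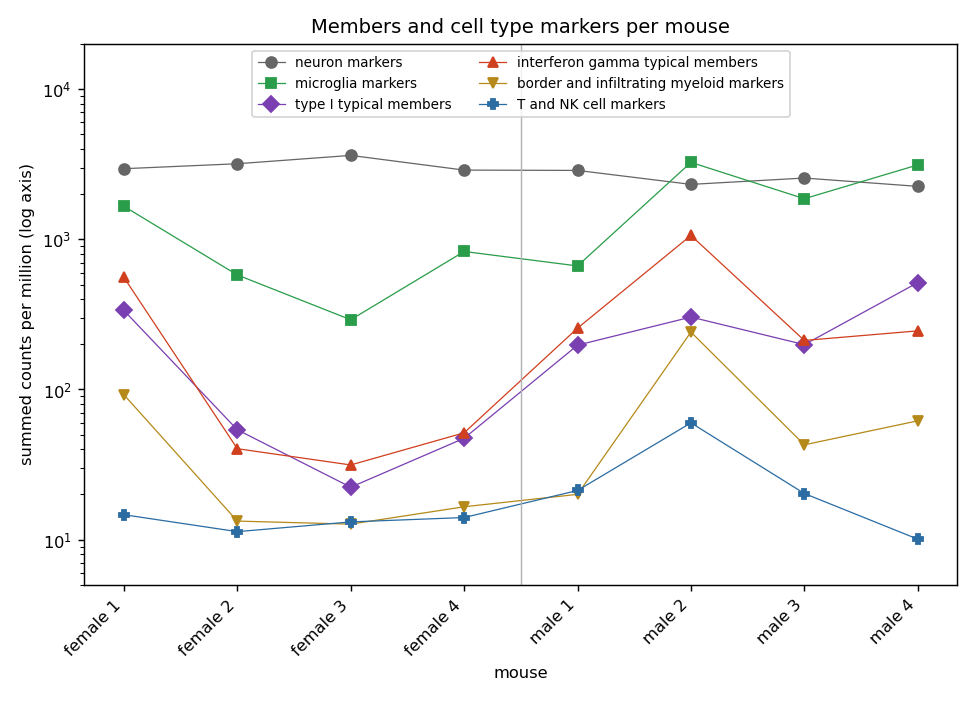
Summed CPM (log axis) in each mouse of the 11 type I typical and the 11 interferon gamma typical members and of the markers of neurons, microglia, border and infiltrating myeloid cells, and T and NK cells. The interferon sums span 22.4 to 515 CPM and 31.4 to 1062 CPM. The neuron sum spans 2253 to 3622 CPM and is lower in every male than in every female. Interferon gamma typical members and the microglia, border and infiltrating myeloid, and T and NK markers all peak in male 2.

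Members are not independent measurements. In the mm10 annotation, 34 of the 53 lie in 14 groups whose neighbours are at most 1000000 bases apart, among them *Irgm1*, *Tgtp1* and *Tgtp2* at chr11:48861968-49064206, *Oas1a*, *Oas2* and *Oas3* at chr5:120730333-120907521, and *Mx1* and *Mx2* at chr16:97447035-97560900. Besides the copies named above, *Ifi211* shared 78.9% and *Oas1a* 68.8% of their 31-base stretches with other genes, and *Bst2*, *Cmpk2*, *Ifi27*, *Ifit2* and *Oas2* shared none. In some members most counts were assigned to transcripts not annotated as protein-coding: the protein-coding share was 4.21% in *Gbp4*, 30.8% in *Mx2*, 32.9% in *Gbp5* and 40.9% in *Ifi27*. For these genes the level is that of all transcripts of the locus. In *Mx2*, transcripts annotated as polymorphic pseudogenes held 32.7% and 20.4% of the counts.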

How the data were processed

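RNA of sorted TN SST neurons was sequenced as single-end reads from 4 female and 4 male mice, with a stranded total RNA kit, and each mouse is 1 sample. The authors assigned reads to the mouse transcriptome (mm10) with kallisto 0.46.2 and deposited estimated counts per transcript, which need not be whole and are not normalized, and TPM, which scales counts for transcript length and library size. Each mouse came in 2 blocks of the same transcripts whose origin is not given in the sources used here. Whether kallisto was run with the strand setting is also not given, so reads of antisense genes may not be told apart. Among them are *Slfn5os* and *Dhx58os*, which share sequence with the members *Slfn5* and *Dhx58*.

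Estimated counts were summed over blocks and over the transcripts of a gene (GENCODE M21) and rounded. Transcripts without a match held 0.429% to 0.611% of the counts. TPM of a gene was the mean of both blocks. The sexes were compared with edgeR 4.0.16 in R 4.3.3 (TMM, default filter by sex, quasi-likelihood test, Benjamini-Hochberg adjustment over all 15194 genes, threshold 0.05), with sex as the only term. Log2 CPM had a prior count of 2. DESeq2 1.42.0, the tool of the authors in its Galaxy version 2.11.40.6, was an alternative. Exact permutation tests are 2-sided, and 0.0286 is the smallest p they can give. The fit was tested on simulated data. Python 3.11.15 with numpy 2.4.6, pandas 2.3.3, scipy 1.17.1 and matplotlib 3.10.9 was used for the rest. Shared sequence was the share of 31-base stretches of the transcripts of a gene that also occur in another gene.

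The members and lists were chosen with earlier results of these data known. Named with values are, by rule, members called or with sexes that do not overlap, the members with the highest mean TPM in each role (4 in the type I and interferon gamma classes, 2 elsewhere), copies, receptors and *Ifng*. The result of 1 further gene that the rule names is not reported here. Others, such as *Mx1*, *Gbp4*, *Bst2*, *Stat3*, *Socs1*, *Socs3*, *Pias1*, *Lyz2*, *Itgax*, *Cd3e* and the other markers named, were chosen after their values were seen, as were the 9 promoters. RefSeq promoter windows (GRCm38.p6) were matched by symbol; *Oas2*, *Mx1*, *Mx2*, *Gbp4*, *Gbp6*, *Usp18*, *Dhx58*, *Zbp1*, *Ifi204*, *Iigp1*, *Ly6e*, *Ifi27*, *Rtp4* and *Parp14* had no match. The gene listed as Mb21d1 is *Cgas* in the annotation.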

Additional observations from a re-analysis of the deposited data

Results flagged for a closer look

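Single mice stood apart from the other 3 of their sex in 12 of the 53 members, in that the gap to the nearest mouse took up more of the range of that sex in log2 CPM than Dixon's 95% limit for 4 samples allows. In 106 groups of 4 mice, chance alone gives such a mark in about 1 in 20, and genes that move together are not independent. In 9 members it was female 1: *Cxcl9* at 6.46, *Igtp* at 6.33, *Gbp6* at 6.27, *Iigp1* at 6.18, *Irf1* at 5.33, *Gbp4* at 5.16, *Ddx58* at 4.86, *Ifi27* at 4.19 and *Ifi35* at 3.03 log2 CPM. In 2 members of the type I side it was male 4, with *Usp18* at 5.42 and *Ifit3b* at 5.36 log2 CPM. In *Tgtp1* it was male 2, at 5.41 log2 CPM, and reads of this gene cannot be divided firmly from those of *Tgtp2*.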

How the results depend on the processing

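The number of members called between the sexes stayed at 0 with another normalization, other filters, each deposited block alone, without *Lars2* and with near-identical copies summed. DESeq2 called 2 members and 5 genes of the pathway lists (0 in edgeR), and 1052 genes in all against 24. Without female 1 and male 2 together, 12 members were called as higher in males (0.262% of all genes). In 50 all males lay above all females (11.2% of all genes), and 2 pathway genes were called. The median log2 fold change was then 2.68 for the members and 2.83 for type I typical members. Leaving out 1 mouse at a time gave 0 to 29 members called, 0 to 50 with sexes that did not overlap, 0 to 2 pathway genes called, and medians of 1.01 to 2.74 for the members, 0.99 to 2.78 for type I typical and 0.51 to 3.74 for interferon gamma typical members. The highest of each came without female 1, shared with leaving out male 1 for the pathway genes, and the cause was not tested. Over these fits 8 to 415 genes were called in all, with 411 without male 1. Without male 2, *Tgtp2*, *Cxcl9* and *Iigp1* had log2 fold changes of -0.10, -0.12 and -0.40, the low end of leaving out 1 mouse, and without female 1 the high end of 4.90, 5.81 and 2.32. Of the 53 members, 49 stayed above 0 without male 2. The order of mice in the type I minus interferon gamma level kept male 2 lowest under every alternative run that included it.

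The replicate numbers in the labels did not pair the mice: same-numbered females and males correlated at -0.40, -0.16, 0.04 and 0.07. With the replicate block 0 members were called (1 gene in all) and the median log2 fold change of the members was 1.99. Depth limits the members at a few counts in females 2, 3 and 4, above all *Tgtp1*, *Tgtp2*, *Cxcl9* and *Bst2*, whose fold changes without female 1 rest on small denominators.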
